A study of Mus musculus with 9 samples.

Results

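The inflammasome and gasdermin genes described here are a set of 10 genes, Nlrp6, Aim2, Pycard, Casp1, Casp4, Il18, Gsdmd, Gsdmc2, Gsdmc3 and Gsdmc4, taken by symbol from a table of 54146 genes, and all 10 were found in it and tested. The table holds RNA-seq of the colonic mucosa of 9 C57BL/6J mice aged 15 wk, and the comparison asks which transcripts differ when an Apc-mutant colon also carries a p16 epimutation. The controls were 5 ApcMin/+ mice (2 females, 3 males). The other group was 4 ApcMin/+; p16cis/cis mice (3 females, 1 male). Both groups therefore carry the Min allele, a germline truncating mutation of 1 copy of Apc, and no mouse with intact Apc was compared. The p16cis allele is a knock-in, present in all cells, of a DNA element that draws methylation to the p16 promoter, and the p16cis/cis mice carry it on both copies. Cdkn2a, the gene that encodes p16, was listed at 0 in all 9 mice, so its silencing cannot be seen in these libraries. Xist, which is transcribed in female cells, was at 2.93 to 23.99 normalized counts in the 4 mice labelled male and at 6021 to 15281 in the 5 labelled female. RNA came from colonic crypts of mucosa that looked normal, with 1 library per mouse and no pooling.

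An inflammasome is a protein assembly that forms in the cytosol when a sensor detects microbial material or damage. The sensor recruits the adaptor ASC, encoded by Pycard, which brings in caspase-1, and caspase-1 matures the cytokine interleukin-18 and cuts gasdermin D so that its freed end opens pores in the membrane. Caspase-11, encoded in the mouse by Casp4, binds bacterial lipopolysaccharide itself and also cuts gasdermin D. In the gut the pathway is known for guarding the epithelium, which makes interleukin-18 itself, and the gasdermin C genes are known as genes of the intestinal epithelium that respond to type 2 cytokines.

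The results turn on the gasdermin C genes, and their likeness in sequence bears on how their reads could be counted. Gsdmc2, Gsdmc3 and Gsdmc4 lie next to each other on the minus strand of chromosome 15, at chr15:63824346-63845177, chr15:63857724-63878558 and chr15:63891264-63912297 (GRCm38, GENCODE M21). Each has a coding sequence of 1443 bases. That of Gsdmc2 was 97.1% identical to that of Gsdmc3, and both were 93.8% identical to that of Gsdmc4. The first 90 coding bases are shown because they are nearly the same in all 3 genes, with capitals at the 2 positions that differ. On the minus strand they lie at chr15:63835854-63835943, chr15:63869208-63869297 and chr15:63902841-63902930.
Gsdmc2: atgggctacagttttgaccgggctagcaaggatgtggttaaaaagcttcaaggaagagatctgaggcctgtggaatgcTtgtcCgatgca
Gsdmc3: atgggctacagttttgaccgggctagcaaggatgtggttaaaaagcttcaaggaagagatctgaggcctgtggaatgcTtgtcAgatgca
Gsdmc4: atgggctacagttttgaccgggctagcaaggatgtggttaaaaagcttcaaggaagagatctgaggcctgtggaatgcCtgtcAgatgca

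Coding bases 630 to 719 are shown because, before the first gap of the alignment, they are the stretch with the most differences, 12 positions, again in capitals.
Gsdmc2: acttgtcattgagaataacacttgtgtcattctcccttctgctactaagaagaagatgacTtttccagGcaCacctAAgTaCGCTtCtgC
Gsdmc3: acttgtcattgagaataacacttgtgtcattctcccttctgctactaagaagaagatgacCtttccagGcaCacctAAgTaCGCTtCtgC
Gsdmc4: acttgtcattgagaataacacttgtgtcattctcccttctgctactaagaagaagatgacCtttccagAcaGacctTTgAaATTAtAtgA

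The stretch joins 2 exons in each gene, and in it Gsdmc2 and Gsdmc3 differ at a single base. A read that lies before the capitals of the first stretch matches all 3 genes, whereas a read across the second tells Gsdmc4 from the other two. Over all annotated transcripts, 51.3% of the 50-base words of Gsdmc2, 46.0% of those of Gsdmc3 and 39.0% of those of Gsdmc4 also occur in another gene, which was always a coding gene of the same family. With 100-base words the shares were 28.6%, 28.4% and 20.2%. The levels of the 3 genes are therefore uncertain one by one, since the authors' counting had to divide shared reads among them, and their sum is given beside them. Of the other 7 genes, Aim2 shared 0.628% of its 50-base words with other genes and the remaining 6 shared none.

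The gasdermin C genes were higher in ApcMin/+; p16cis/cis mice by 2.5- to 3.1-fold in the ratio of means, and Casp4 was higher by 1.6-fold. The other 6 genes, which include the sensors, the adaptor, caspase-1, interleukin-18 and gasdermin D, did not pass the test. A normalized count here is a gene's reads divided by a size factor of the mouse, and a gene passed when the Benjamini-Hochberg adjusted p of limma, over the 14410 genes tested, was under 0.05. In all, 4 of the 10 genes were higher and 0 were lower, against 8.14% of all genes tested that were higher, 8.75% that were lower and 16.9% that passed in either direction, and 7 of the 10 had an unadjusted p under 0.05, beside 33.2% of all genes. With the edgeR quasi-likelihood test the same 4 passed and 0 were lower, and with DESeq2 3 were higher and 0 lower. The median log2 fold change of the 10 genes was 0.33, beside -0.0041 over all genes tested.

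The libraries themselves differed with genotype. Reads on genes ran from 15745098 to 17885918 in ApcMin/+ mice and from 13523500 to 14900228 in ApcMin/+; p16cis/cis mice. The share of those reads on mitochondrial genes was 8.74% to 15.6% in the first group and 19.3% to 29.8% in the second, with no overlap, and within ApcMin/+ mice it was higher in both females than in the 3 males. Genotype and this share cannot be told apart in 9 mice, and the values of the genes that passed are also given with the share as a covariate. Nothing in the labels says more of the mice than genotype, sex and age, so the p-values measure the spread between these mice.

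**Figure D1:**
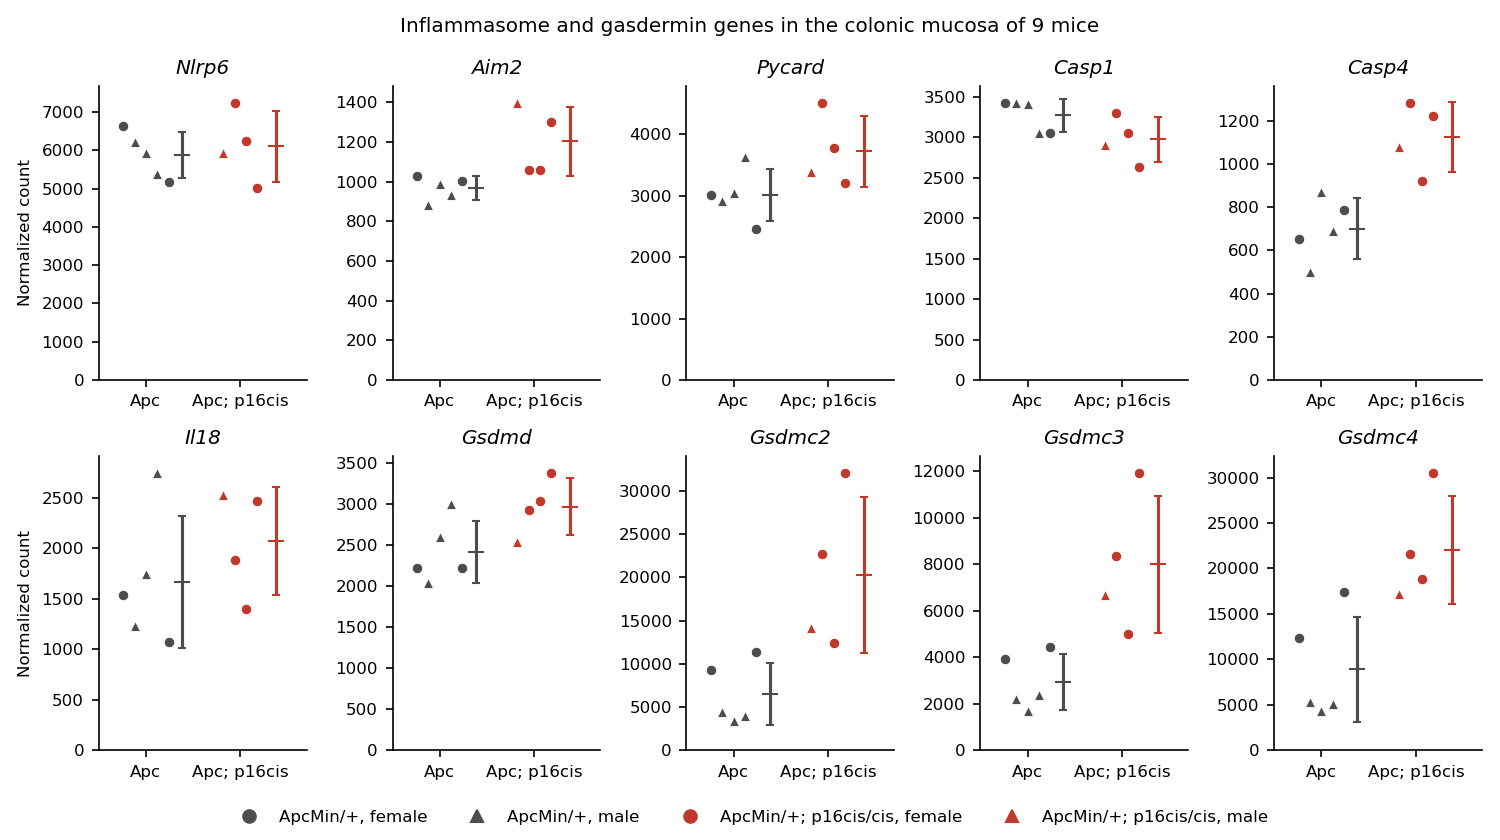
Normalized counts of the 10 genes in each mouse (vertical axis from 0, a separate scale for each gene); circles are females, triangles are males, and the bar beside each group is its mean ± SD. The ApcMin/+; p16cis/cis mice (red) lie above all ApcMin/+ mice (gray) for Aim2, Casp4, Gsdmc2 and Gsdmc3, while for Nlrp6, Casp1 and Il18 the groups lie across each other.

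Nlrp6 encodes a sensor of the gut epithelium that forms an inflammasome with ASC and is known for its part in mucus secretion and host defense. It lies at chr7:140920902-140929192 on the plus strand. Its normalized counts were 6647, 6217, 5935, 5376 and 5187 in the ApcMin/+ mice and 5926, 7252, 6242 and 5018 in the ApcMin/+; p16cis/cis mice. The highest and the lowest of the 9 mice were both ApcMin/+; p16cis/cis mice, so the groups overlapped over their whole range. The log2 fold change was 0.05 (SE 0.12, adjusted p = 0.813 with limma), and it was -0.036 without ApcMin/+; p16cis/cis replicate 2.

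Aim2 encodes a sensor of DNA in the cytosol. It lies at chr1:173350879-173466040 on the plus strand, where it overlaps Cadm3 on the other strand. The normalized counts were 1029, 883, 990, 930 and 1005 in ApcMin/+ mice and 1398, 1056, 1058 and 1300 in ApcMin/+; p16cis/cis mice. The groups did not overlap, but replicates 2 and 3 exceeded the highest ApcMin/+ mouse by little. The log2 fold change of 0.31 (SE 0.11) did not pass (adjusted p = 0.0778 with limma), although the exact permutation test over the 126 splits of the 9 mice gave a 2-sided p of 0.00794, the smallest it can give. In females alone the log2 fold change was 0.16 (SE 0.15).

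Pycard, the adaptor gene, lies at chr7:127989708-127993867 on the minus strand. It had normalized counts of 3005, 2922, 3045, 3629 and 2463 in ApcMin/+ mice and of 3392, 4517, 3772 and 3205 in ApcMin/+; p16cis/cis mice. ApcMin/+ replicate 4 reached into the other group, and the remaining ApcMin/+ mice were below all of it. The log2 fold change was 0.30 (SE 0.13, adjusted p = 0.129 with limma). Without ApcMin/+ replicate 4 the adjusted p was 0.0443, the only pass among the 9 fits that each left out 1 mouse. In that fit 3488 of the 14410 genes passed, beside 2434 with all mice.

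Casp1 and Casp4 are neighbors on the plus strand of chromosome 9, at chr9:5298517-5307265 and chr9:5308828-5336783, with 1563 bp between them. They gave different results. Casp1, which encodes the caspase of the canonical inflammasome, had normalized counts of 3431, 3421, 3419, 3052 and 3053 in ApcMin/+ mice and of 2912, 3308, 3052 and 2632 in ApcMin/+; p16cis/cis mice. The groups overlapped, and the log2 fold change was -0.14 (SE 0.10, adjusted p = 0.340 with limma). Casp4, which encodes the caspase of the noncanonical pathway, had normalized counts of 652, 500, 872, 690 and 789 in ApcMin/+ mice and of 1080, 1284, 920 and 1223 in ApcMin/+; p16cis/cis mice. All 4 ApcMin/+; p16cis/cis mice were above the highest ApcMin/+ mouse, and both sexes showed this.

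The Casp4 means were 701 ± 141 (SD, n = 5) and 1127 ± 163 (SD, n = 4), a log2 fold change of 0.70 (SE 0.16, adjusted p = 0.0147 with limma). All 4 genes whose groups did not overlap (Aim2, Casp4, Gsdmc2 and Gsdmc3) were higher, beside 7.24% of all genes tested that were higher without overlap, 8.95% that were lower without overlap and 16.2% in either direction. The exact permutation p was 0.0159 over all splits and 0.05 over the 40 arrangements within sex, for which 0.025 is the smallest value. With sex as a covariate the log2 fold change was 0.67 and passed (adjusted p = 0.0383 with limma), whereas in females alone it was 0.66 and did not (adjusted p = 0.0676). Without ApcMin/+; p16cis/cis replicate 2 it was 0.63 (adjusted p = 0.0507), and with the mitochondrial share as a covariate it was 0.45 (adjusted p = 0.860). Casp12, the next caspase gene along chromosome 9 and 8647 bp beyond Casp4, was lower, with 42.4 ± 18.02 (SD, n = 5) against 15.1 ± 8.92 (SD, n = 4) normalized counts.

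Il18 encodes interleukin-18 and lies at chr9:50554827-50581840 on the plus strand, where Bco2 and Tex12 overlap it on the other strand. It was the most variable of the genes outside the gasdermin C cluster. The normalized counts were 1537, 1228, 1750, 2743 and 1077 in ApcMin/+ mice and 2531, 1884, 1402 and 2464 in ApcMin/+; p16cis/cis mice. The highest value of all belonged to ApcMin/+ replicate 4, and the log2 fold change of 0.35 (SE 0.25) did not pass (adjusted p = 0.362 with limma).

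Gsdmd encodes the pore-forming substrate that caspase-1 and caspase-11 share, and lies at chr15:75862327-75867408 on the plus strand. The normalized counts were 2218, 2043, 2592, 2996 and 2222 in ApcMin/+ mice and 2531, 2927, 3031 and 3374 in ApcMin/+; p16cis/cis mice. ApcMin/+ replicates 3 and 4 lay within the range of the other group. The log2 fold change was 0.30 (SE 0.13, adjusted p = 0.122 with limma), and the adjusted p was 0.0283 without ApcMin/+ replicate 4. This was the only pass among the 9 fits that each left out 1 mouse. In it 3488 of the 14410 genes passed, beside 2434 with all mice. ApcMin/+ replicate 4 had the highest Pycard, Il18 and Gsdmd of its group.

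The gasdermin C genes encode pore-forming proteins of the same family as gasdermin D. Gsdmc2 had normalized counts of 9339, 4453, 3344, 3999 and 11371 in ApcMin/+ mice and of 14158, 22673, 12430 and 32064 in ApcMin/+; p16cis/cis mice. For Gsdmc3 they were 3932, 2229, 1679, 2397 and 4456 against 6691, 8349, 5008 and 11906. For Gsdmc4 they were 12329, 5307, 4309, 5149 and 17429 against 17243, 21581, 18845 and 30480. The groups did not overlap for Gsdmc2 and Gsdmc3, whereas for Gsdmc4 the highest ApcMin/+ mouse, replicate 5, was just above the lowest ApcMin/+; p16cis/cis mouse, replicate 1. The same mouse, ApcMin/+; p16cis/cis replicate 4, was the highest for all 3 genes, and ApcMin/+ replicate 3 was the lowest for all 3.

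With genotypes in the same order, Gsdmc2 averaged 6501 ± 3612 (SD, n = 5) and 20331 ± 9012 (SD, n = 4), a log2 fold change of 1.72 (SE 0.38, adjusted p = 0.0125 with limma). Gsdmc3 rose from 2939 ± 1191 to 7989 ± 2946, by 1.47 on the log2 scale (SE 0.30, adjusted p = 0.0091). Gsdmc4 rose from 8905 ± 5757 to 22037 ± 5907, by 1.50 (SE 0.38, adjusted p = 0.0207). These are rises of more than 2-fold that pass the test, which 1.83% of all genes tested showed. Gsdmc2 and Gsdmc3 passed whichever single mouse was left out, with log2 fold changes of 1.46 to 1.96 and of 1.25 to 1.67. Gsdmc4 lost the call without ApcMin/+ replicate 2 (adjusted p = 0.0508), ApcMin/+ replicate 3 (0.05002), ApcMin/+; p16cis/cis replicate 2 (0.0547) or replicate 4 (0.0694), and with DESeq2 (0.0510).

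**Figure D2:**
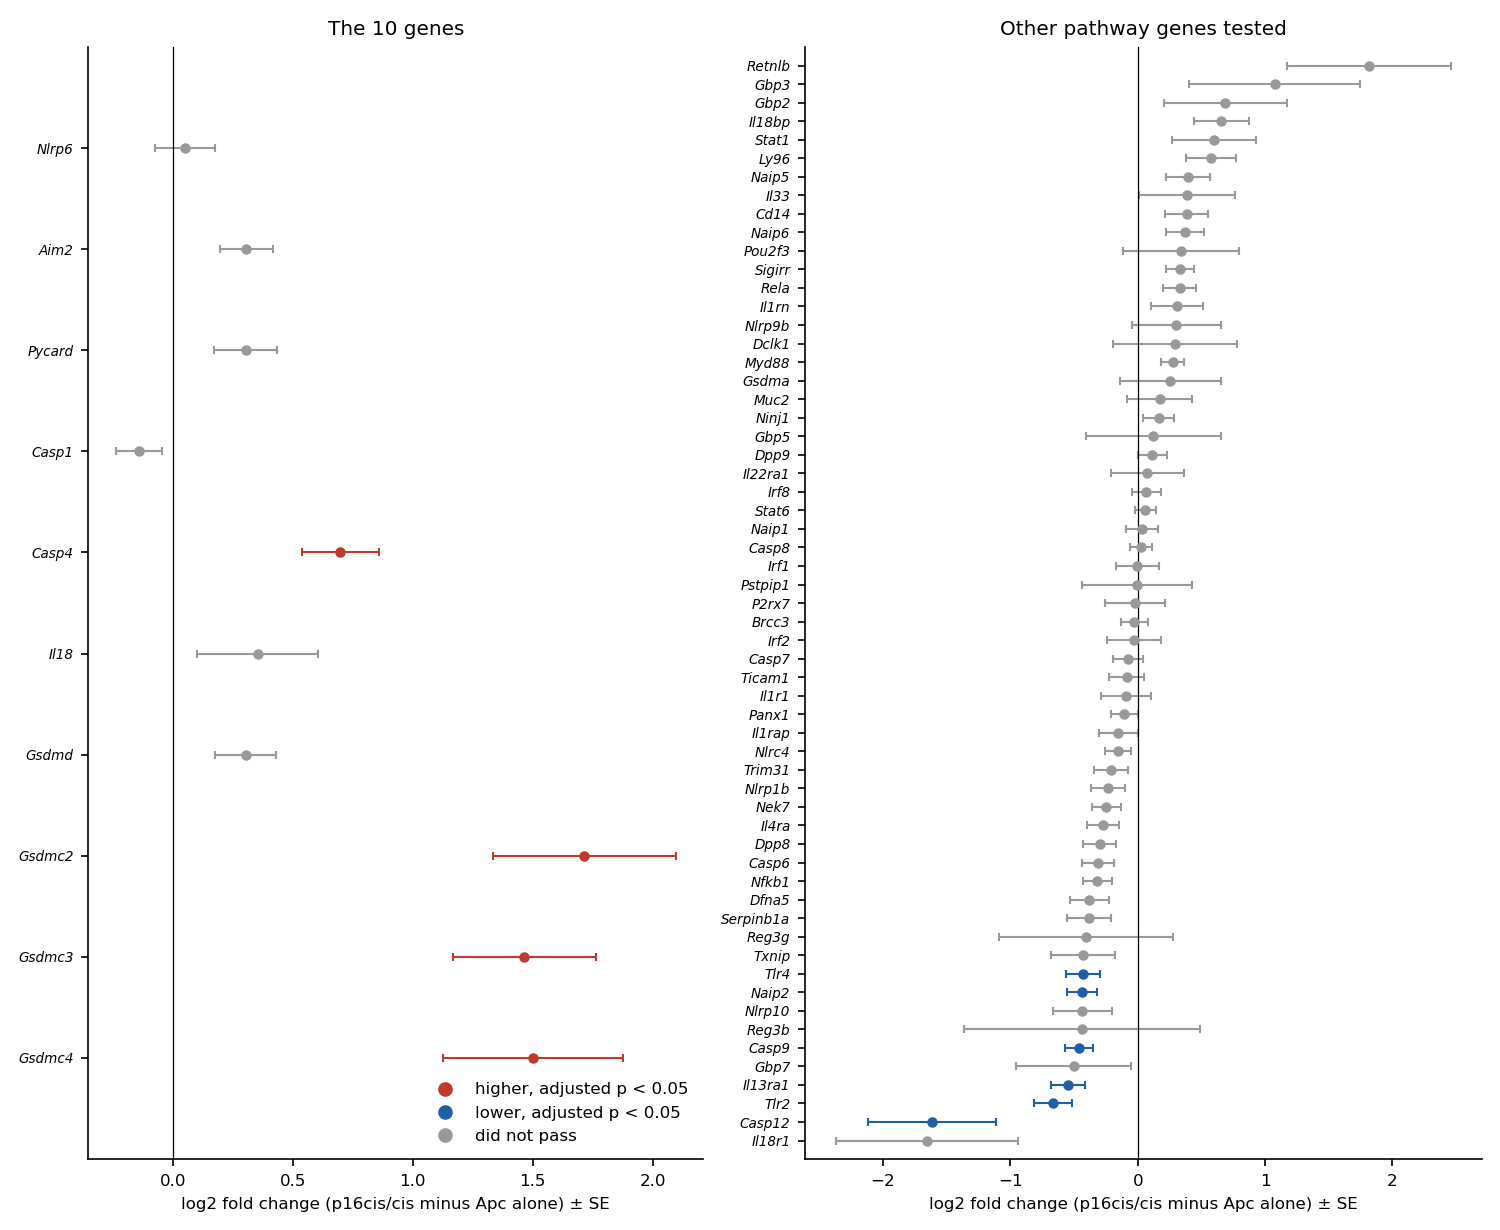
Log2 fold change of each gene (horizontal axis, ApcMin/+; p16cis/cis minus ApcMin/+, limma) with its SE as the bar, for the 10 genes on the left and the other pathway genes tested, apart from 1 not reported here, on the right. Red and blue points passed at an adjusted p under 0.05: the gasdermin C genes at 1.47 to 1.72 and Casp4 at 0.70 on the left, and 6 genes with negative values on the right.

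Sex and genotype were unevenly combined, and the gasdermin C genes differed with both. Among ApcMin/+ mice the 2 females had the 2 highest values of each of the 3 genes. Males minus females within ApcMin/+ gave log2 differences of -1.40 for Gsdmc2, -1.01 for Gsdmc3 and -1.58 for Gsdmc4. None passed over all genes (adjusted p between 0.101 and 0.344 with limma), while the unadjusted p of limma was 8.4e-05, 7.6e-04 and 7.9e-05. Within each sex the genotypes did not overlap for any of the 3 genes. For Gsdmc4 the 2 ApcMin/+ females (12329 and 17429) were below the 3 ApcMin/+; p16cis/cis females (18845 to 30480), and the 3 ApcMin/+ males (4309 to 5307) were below the ApcMin/+; p16cis/cis male (17243).

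The exact permutation p within sex was 0.025 for each of the 3 genes, the smallest that the 40 arrangements allow. With sex as a covariate the log2 fold changes were 1.34, 1.22 and 1.10 for Gsdmc2, Gsdmc3 and Gsdmc4, and all passed (adjusted p = 0.0179, 0.0186 and 0.0219 with limma). In females alone, 2 against 3 mice, they were 1.02, 0.92 and 0.66, and none passed (adjusted p = 0.105, 0.0978 and 0.139), although 6 of the 10 genes, these 3 among them, had an unadjusted p under 0.05, beside 26.2% of all genes. No difference of the genotype effect between the sexes passed for any of the 10 genes, the lowest adjusted p of limma being 0.722 for Gsdmc4 (unadjusted p = 0.0118), with only 1 ApcMin/+; p16cis/cis male to measure it. With the mitochondrial share as a covariate the log2 fold changes fell to -0.085, 0.17 and -0.043, with SE between 0.50 and 0.66. In that limma fit 0 of the 14410 genes passed and 798 had an unadjusted p under 0.05, none of them among the 10 genes.

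The sum of Gsdmc2, Gsdmc3 and Gsdmc4 does not depend on how reads were divided among them. It was 25600, 11988, 9332, 11546 and 33257 normalized counts in ApcMin/+ mice and 38093, 52603, 36284 and 74450 in ApcMin/+; p16cis/cis mice, without overlap. As a share of reads outside mitochondrial genes it was 0.162%, 0.0789%, 0.0586%, 0.0650% and 0.217% against 0.251%, 0.347%, 0.214% and 0.456%. On this second scale ApcMin/+ replicate 5 was slightly above ApcMin/+; p16cis/cis replicate 3, so a small overlap appeared. Gsdmc4 gave 40.9% to 52.4% of the summed reads of a mouse, Gsdmc2 34.2% to 43.1% and Gsdmc3 13.4% to 20.8%. Thus the proportions of the 3 genes varied far less between mice than their sum.

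**Figure D3:**
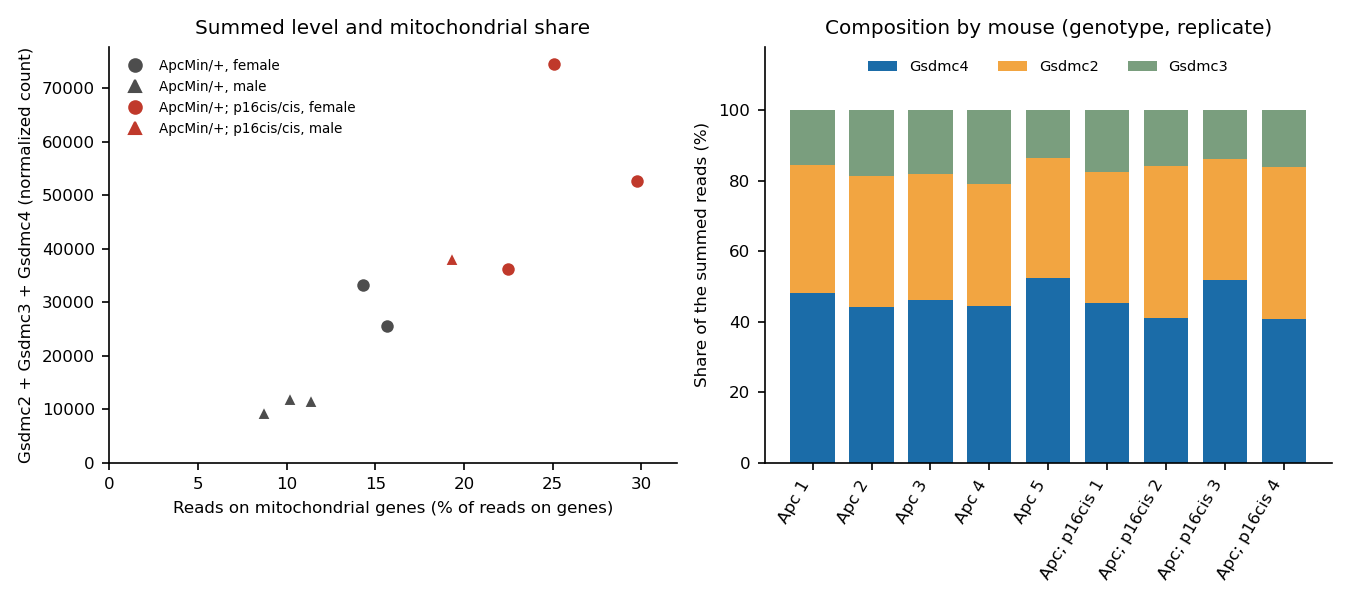
Left, the summed normalized count of Gsdmc2, Gsdmc3 and Gsdmc4 (vertical axis) against the percentage of reads on mitochondrial genes (horizontal axis) in each mouse; circles are females and triangles males. Right, the percentage of the summed reads given by each gene, with 1 bar per mouse. The ApcMin/+ males lie lowest on both axes (sums of 9332 to 11988), the ApcMin/+ females next and the ApcMin/+; p16cis/cis mice (red) highest, while the bars on the right look alike.

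The cluster holds more than these 3 genes. Gsdmc, the remaining coding gene of the family at chr15:63775968-63808759, was at 0.976 to 9.40 normalized counts and was not tested. A pseudogene on the plus strand starts 2132 bp from the start of Gsdmc2, 2149 bp from that of Gsdmc3 and 2151 bp from that of Gsdmc4, pointing away from it. Gsdmcl1, beside Gsdmc2, was at 1.60 or less in every mouse. Gsdmcl2, beside Gsdmc3, had 2294, 646, 603, 768 and 2203 normalized counts in ApcMin/+ mice and 3130, 3999, 3044 and 8785 in ApcMin/+; p16cis/cis mice, with no overlap and a log2 fold change of 1.98 (SE 0.45, adjusted p = 0.0139 with limma). Gsdmcl-ps, beside Gsdmc4 and chosen after its values were seen, rose from 45.0 ± 28.2 (SD, n = 5) to 267 ± 112 (SD, n = 4), by 2.65 on the log2 scale (SE 0.44, adjusted p = 0.0043). With the mitochondrial share as a covariate the log2 fold changes were 0.099 for Gsdmcl2 (adjusted p = 0.986) and 0.81 for Gsdmcl-ps (adjusted p = 0.878). In females alone they were 1.08 (adjusted p = 0.104) and 1.77 (adjusted p = 0.0401).

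These pseudogenes shared no 50-base word with Gsdmc2, Gsdmc3 or Gsdmc4. In Gsdmcl2 and Gsdmcl-ps too, both ApcMin/+ females were above the 3 ApcMin/+ males. Fam49b, the next coding gene beyond the cluster, did not pass (-0.23, SE 0.14, adjusted p = 0.282 with limma). Whether the libraries kept strand is not stated in the sources used here, but the pseudogenes do not overlap the coding genes.

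**Figure D4:**
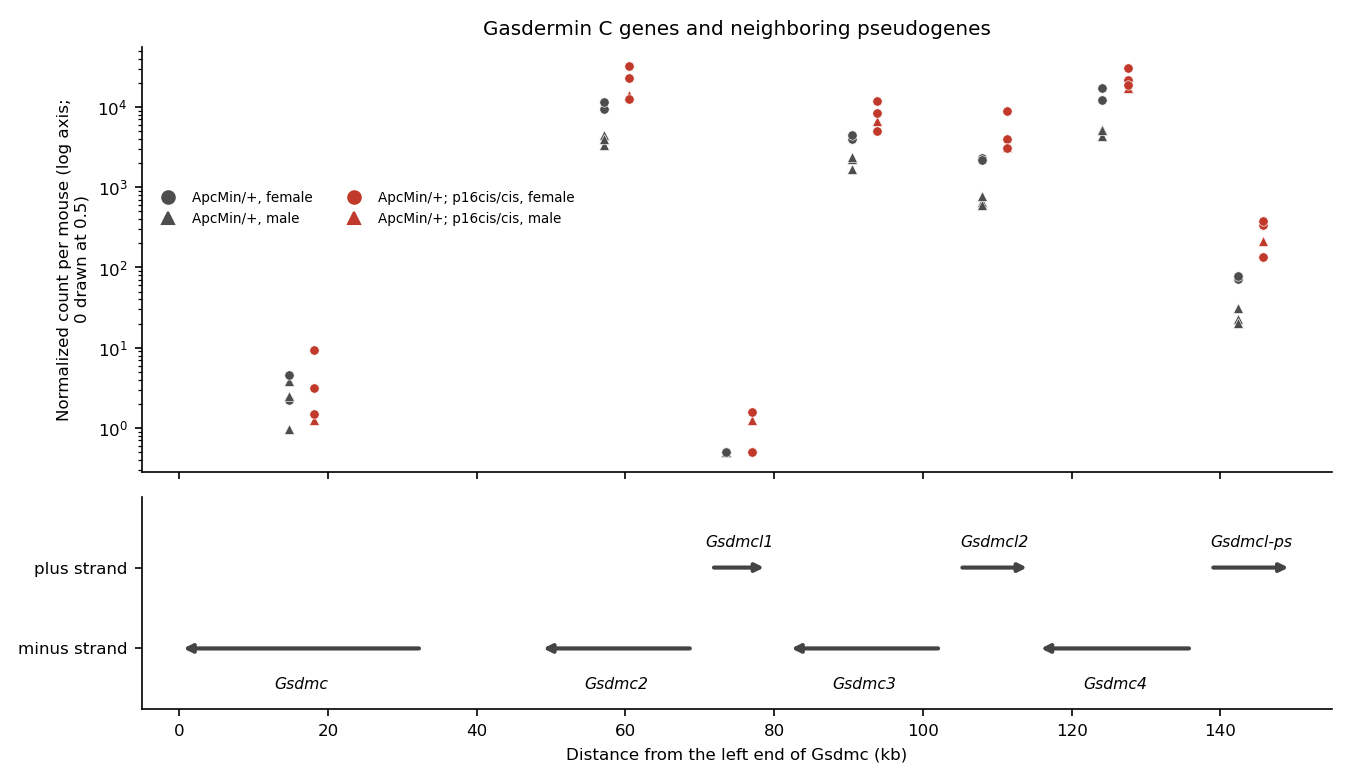
The gasdermin C cluster drawn to scale as distance in kb from the left end of Gsdmc (lower panel, arrows point in the direction of transcription) with the normalized count of each gene in each mouse above it (log axis, 0 drawn at 0.5). Gsdmc2, Gsdmc3, Gsdmc4, Gsdmcl2 and Gsdmcl-ps have higher counts in ApcMin/+; p16cis/cis mice (red), while Gsdmc and Gsdmcl1 are at or below 9.40 in all mice.

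The genes that varied most like the gasdermin C genes were sought by correlating, over the 9 mice, deviations from the genotype means of the log2 normalized counts with the mean of Gsdmc2, Gsdmc3 and Gsdmc4. This is a description over 9 mice that share sex and mitochondrial share as sources of variation. The 5 highest of the 14410 genes were Clca2 (r = 0.976), Gsdmcl2 (r = 0.968), Ear-ps3 (r = 0.967), RP24-417N13.2 (r = 0.956) and Fam221a (r = 0.956). Besides Gsdmcl2, only Fam221a passed between the genotypes, with 136 ± 75.6 (SD, n = 5) against 355 ± 145 (SD, n = 4) normalized counts and a log2 fold change of 1.45 (SE 0.35, adjusted p = 0.0175 with limma). It did not pass without ApcMin/+; p16cis/cis replicate 4 (1.20, adjusted p = 0.0599), in females alone (0.81, adjusted p = 0.149) or with the mitochondrial share as a covariate (0.23, adjusted p = 0.959). Clca2 had 1.95 to 26.1 normalized counts in ApcMin/+ mice and 13.5 to 92.4 in ApcMin/+; p16cis/cis mice, so its level was low.

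Per length, Gsdmc4 and Gsdmc2 had the highest mean levels of the set in ApcMin/+ mice, and Gsdmc3 was in the middle. Levels between genes are given as RPKM, reads scaled to exon length in kb and to the reads of the mouse outside mitochondrial genes. In ApcMin/+ mice the order was Gsdmc4 (271 ± 183, SD, n = 5), Gsdmc2 (178 ± 104), Casp1 (137 ± 14.0), Il18 (99.4 ± 31.8), Gsdmc3 (79.6 ± 34.3), Nlrp6 (72.5 ± 9.58), Gsdmd (63.2 ± 6.23), Pycard (49.4 ± 4.23), Aim2 (17.3 ± 1.56) and Casp4 (11.8 ± 2.45). Gsdmc4 was above Gsdmc2 in 5 of 5 mice, and the order from Gsdmd through Pycard and Aim2 to Casp4 also held in 5 of 5 mice at each step. Gsdmc2 exceeded Casp1 in 2 of the 5 mice and Gsdmc3 exceeded Nlrp6 in 2, so those neighbors did not differ beyond their spread. The other neighbors kept their order in 3 or 4 of the 5 mice. In ApcMin/+; p16cis/cis mice Gsdmc4 was at 663 ± 168 (SD, n = 4), Gsdmc2 at 554 ± 241 and Gsdmc3 at 217 ± 78.4 on the same scale, and Casp4 at 19.2 ± 3.41 remained at the bottom with Aim2 at 21.7 ± 3.66.

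The promoter table of RefSeq (GRCm38.p6) held 7 of the 10 genes in 8 windows of 250 bases before to 50 bases after the start, with no entry for Gsdmd, Gsdmc2 and Gsdmc4. Starts here are those of RefSeq, and for Casp4 and Il18 they differ from the GENCODE starts given above. Casp4 has a second window, at chr9:5308610-5308909, which is not shown. Of the genes that passed, Casp4 and Gsdmc3 have a window, and the 250 bases before their starts are shown for that reason, at chr9:5308599-5308848 on the plus strand and chr15:63878559-63878808 on the minus strand.
Casp4: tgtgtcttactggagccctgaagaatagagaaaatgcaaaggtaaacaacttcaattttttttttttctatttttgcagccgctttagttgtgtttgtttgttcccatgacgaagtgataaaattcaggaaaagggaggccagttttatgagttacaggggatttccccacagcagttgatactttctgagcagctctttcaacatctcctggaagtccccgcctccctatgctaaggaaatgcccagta
Gsdmc3: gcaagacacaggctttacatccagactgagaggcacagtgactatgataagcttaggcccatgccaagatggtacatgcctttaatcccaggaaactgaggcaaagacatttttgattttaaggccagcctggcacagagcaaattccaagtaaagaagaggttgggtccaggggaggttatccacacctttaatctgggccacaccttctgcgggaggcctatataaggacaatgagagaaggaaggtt

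The windows were searched on both strands for the letters GAAANNGAAA of the interferon-stimulated response element, TTCNNNGAA of the gamma-activated site and TTCNNNNGAA of the STAT6 site, where N is any base. These occur in 3.44%, 8.30% and 6.95% of the 32851 windows of all genes. The windows of the 7 genes held neither of the first pair. The STAT6 letters occurred in that of Il18 alone, 46 bases before its RefSeq start, and are shown in capitals within chr9:50554634-50554683 on the plus strand.
Il18: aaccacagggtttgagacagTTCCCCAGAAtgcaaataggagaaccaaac

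Around these 10 genes, 81 other genes of the pathway were listed in 8 lists, of which 79 were found in the table and 60 had counts high enough to be tested. Of the 60 tested, 0 were higher and 7 were lower in ApcMin/+; p16cis/cis mice with limma, beside 8.14% and 8.75% of all genes, and 24 had an unadjusted p under 0.05 in either direction, beside 33.2% of all genes. Their median log2 fold change was -0.02. The edgeR test on the same genes also gave 0 higher and 7 lower, while 2469 of all 14410 genes passed. DESeq2 was run on all 54146 genes without the filter on low values. It gave 4 higher and 8 lower pathway genes, while 3251 genes passed in all. The 7 lower genes all separated the genotypes without overlap, but some calls were lost when 1 mouse was left out. Of those named below, with each of the 9 mice left out in turn, Tlr2 passed all 9 times, Casp9 8 times (not without ApcMin/+; p16cis/cis replicate 2), Il13ra1 8 times (not without ApcMin/+; p16cis/cis replicate 4), Naip2 3 times, Casp12 2 times and Tlr4 1 time. Naip2 and Casp12 no longer passed with sex as a covariate, and Casp12 and Tlr4 no longer passed without the filter on low values. None of the 7 passed in females alone or with the mitochondrial share as a covariate, where the log2 fold changes were -0.22 for Naip2, -0.20 for Casp9, -0.39 for Casp12, -0.47 for Tlr2, -0.68 for Tlr4 and -0.43 for Il13ra1.

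Among 8 other sensors tested, 1 was lower and 0 higher, beside 8.75% and 8.14% of all genes tested. An unadjusted p under 0.05 was found for 3 of the 8, beside 33.2% of all genes. The lower gene was Naip2, which encodes a receptor for bacterial secretion proteins that signals through Nlrc4, at 1802 ± 78.9 (SD, n = 5) against 1347 ± 231 (SD, n = 4) normalized counts, a log2 fold change of -0.43 (SE 0.12, adjusted p = 0.0278 with limma). Nlrc4 did not pass (-0.15, adjusted p = 0.334), and Nlrp3, the sensor of myeloid cells, was at 0 to 3.41 normalized counts and could not be tested. The paralogs Naip5 and Naip6 had log2 fold changes of 0.39 (adjusted p = 0.132) and 0.37 (adjusted p = 0.102), opposite in sign to Naip2.

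Of the 6 other caspases, 3 were lower and 0 higher, beside 8.75% and 8.14% of all genes tested. Casp9, the initiator caspase of the mitochondrial death pathway, was at 639 ± 39.2 (SD, n = 5) against 465 ± 48.7 (SD, n = 4) normalized counts, a log2 fold change of -0.46 (SE 0.11, adjusted p = 0.0151 with limma). Casp12, an inflammatory caspase, had a log2 fold change of -1.62 (SE 0.50, adjusted p = 0.0462) at a level where single mice had 3.13 to 73.2 normalized counts. Casp4 was thus the only one of the 8 caspases listed that was higher. Casp8, the initiator caspase of death receptors, had a log2 fold change of 0.03 (adjusted p = 0.860).

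Of the interleukin-1 family and its receptors, 7 were tested and none passed in either direction with limma (3 with an unadjusted p under 0.05). Il18bp, which encodes the secreted inhibitor of interleukin-18, came nearest. It had normalized counts of 114, 124, 110, 68.6 and 138 in ApcMin/+ mice and of 149, 191, 207 and 144 in ApcMin/+; p16cis/cis mice. The groups did not overlap, and the log2 fold change was 0.66 (SE 0.22, adjusted p = 0.0580 with limma). It was 0.0291 with DESeq2 and 0.0477 with limma without ApcMin/+ replicate 5. Il1b was at 0 to 22.5 normalized counts and was not tested. The receptor gene Il18r1, at 0 to 21.6, was tested and did not pass (-1.65, SE 0.72, adjusted p = 0.128 with limma).

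The remaining gasdermins were low or did not pass. Gsdma had a log2 fold change of 0.26 (adjusted p = 0.692 with limma), and Dfna5, which encodes gasdermin E, of -0.38 (adjusted p = 0.108, and 0.0280 without ApcMin/+ replicate 4). Dfna5 passed in that fit alone of the 9 that each left out 1 mouse, and 3488 of the 14410 genes passed in it. Gsdma2 was at 0.976 or less and Gsdma3 at 0 in every mouse. Ninj1, which ruptures the membrane after pores have formed, had a log2 fold change of 0.17 (adjusted p = 0.376). Increases that passed were thus limited, within the gasdermins tested, to the gasdermin C genes.

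Of 16 genes of priming and lipopolysaccharide sensing, 2 were lower and 0 higher, beside 8.75% and 8.14% of all genes tested. An unadjusted p under 0.05 was found for 7 of the 16, beside 33.2% of all genes. Tlr2, a receptor for bacterial lipoproteins, was at 723 ± 135 (SD, n = 5) against 452 ± 58.9 (SD, n = 4) normalized counts, a log2 fold change of -0.67 (SE 0.15, adjusted p = 0.0135 with limma). Tlr4, the receptor for lipopolysaccharide, was at 345 ± 48.9 against 254 ± 14.5, a log2 fold change of -0.43 (SE 0.13, adjusted p = 0.0436). Casp4 and Tlr4, whose products both detect lipopolysaccharide, one inside and one outside the cytosol, thus had opposite signs. Gbp2 and Gbp3, interferon-induced genes whose products act on bacteria in the cytosol, had log2 fold changes of 0.69 (SE 0.48) and 1.07 (SE 0.67) and did not pass (adjusted p = 0.353 and 0.291). Gbp5 and Gbp7 of the same family had 0.12 (SE 0.53, adjusted p = 0.900 with limma) and -0.50 (SE 0.45, adjusted p = 0.476). Of the 10 inflammasome regulators 0 passed with limma (3 with an unadjusted p under 0.05), and of the 4 genes downstream of interleukin-18 tested 0 passed (0 with an unadjusted p under 0.05).

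Of 6 genes of the type 2 cytokine axis tested, 1 was lower and 0 higher, beside 8.75% and 8.14% of all genes tested. An unadjusted p under 0.05 was found for 3 of the 6, beside 33.2% of all genes. Il13ra1, a receptor chain for interleukin-13, was at 2726 ± 278 (SD, n = 5) against 1885 ± 334 (SD, n = 4) normalized counts, a log2 fold change of -0.54 (SE 0.13, adjusted p = 0.0195 with limma). Il4ra had -0.27 (adjusted p = 0.147) and Stat6 0.06. Il13 was listed at 0 in every mouse, Il4 was at 2.27 to 7.98 and Il25 at 0.951 to 7.81. Retnlb, a goblet cell gene that type 2 cytokines induce and that was chosen after its values were seen, had normalized counts of 3014, 2147, 1773, 806 and 13084 in ApcMin/+ mice and of 4267, 7810, 11814 and 18072 in ApcMin/+; p16cis/cis mice. A single ApcMin/+ mouse, the female replicate 5, lay inside the range of the other group, and the log2 fold change of 1.81 (SE 0.65) did not pass (adjusted p = 0.0730 with limma). Without that mouse it was 2.40 (adjusted p = 0.0110 with limma), the only pass among the 9 fits that each left out 1 mouse. With all mice it was 1.33 with edgeR (adjusted p = 0.188) and 1.33 with DESeq2 (adjusted p = 0.284).

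Markers of the labelled tissue were present. The 8 epithelial markers summed to 186196 to 270629 normalized counts in ApcMin/+ mice and to 185386 to 249731 in ApcMin/+; p16cis/cis mice, and none of them passed, with 3 at an unadjusted p under 0.05. The 7 markers of surface colonocytes summed to 156249 to 302695 against 113616 to 144023 without overlap. Of the 7 only Slc26a3 passed (-1.23, adjusted p = 0.0085 with limma), and it alone separated the genotypes without overlap. Car1 was the highest of the 7 in every mouse and so weighed most in the sum. It was at 65000 to 165058 against 40060 to 68016 normalized counts and did not pass (-0.81, adjusted p = 0.0750 with limma). Fewer cells of a type and less RNA per cell cannot be told apart in such tissue. The part of the lower surface colonocyte sum in the gasdermin C result was not tested.

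The 8 markers of macrophages and monocytes summed to 1030 to 1864 normalized counts in ApcMin/+ mice and to 1509 to 1566 in ApcMin/+; p16cis/cis mice, with 1 of 6 tested lower (Lyz2, -1.56, adjusted p = 0.0074 with limma). Most of that sum was Cd14, at 799 to 1615 against 1350 to 1437. Of the 6 tested, 2 had positive log2 fold changes, Cd14 (0.38, adjusted p = 0.129 with limma) and Cd68 (0.85, adjusted p = 0.0903). Csf1r was at -1.04 (adjusted p = 0.104). Adgre1 was not tested, with 1.90 to 6.70 normalized counts in ApcMin/+ mice and 0 in every ApcMin/+; p16cis/cis mouse. The 3 leukocyte markers summed to 59.7 to 1434 against 269 to 416, the 6 T cell markers to 61.0 to 749 against 230 to 389, and the 5 B and plasma cell markers to 34.3 to 884 against 36.0 to 179, with Jchain lower (-2.65, adjusted p = 0.0175 with limma). The 4 neutrophil markers, at 4.75 to 49.1 against 1.26 to 63.1, and the 7 stromal markers, at 72.5 to 427 against 78.3 to 172, also overlapped. ApcMin/+ replicate 4 was the lowest mouse for all 3 leukocyte markers, with Ptprc at 30.5. In the other ApcMin/+ mice Ptprc was at 227 to 750, against 99.8 to 168 in ApcMin/+; p16cis/cis mice. All 3 leukocyte and all 5 B and plasma cell markers had negative log2 fold changes, with medians of -0.49 and -1.98. None of the 3 leukocyte markers passed, and 2 of the 5 T cell markers tested had positive log2 fold changes. All 7 stromal markers had negative log2 fold changes, with a median of -1.47, and Col3a1 was lower (-2.92, adjusted p = 0.0414 with limma). No marker was at 0 in all mice.

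**Figure D5:**
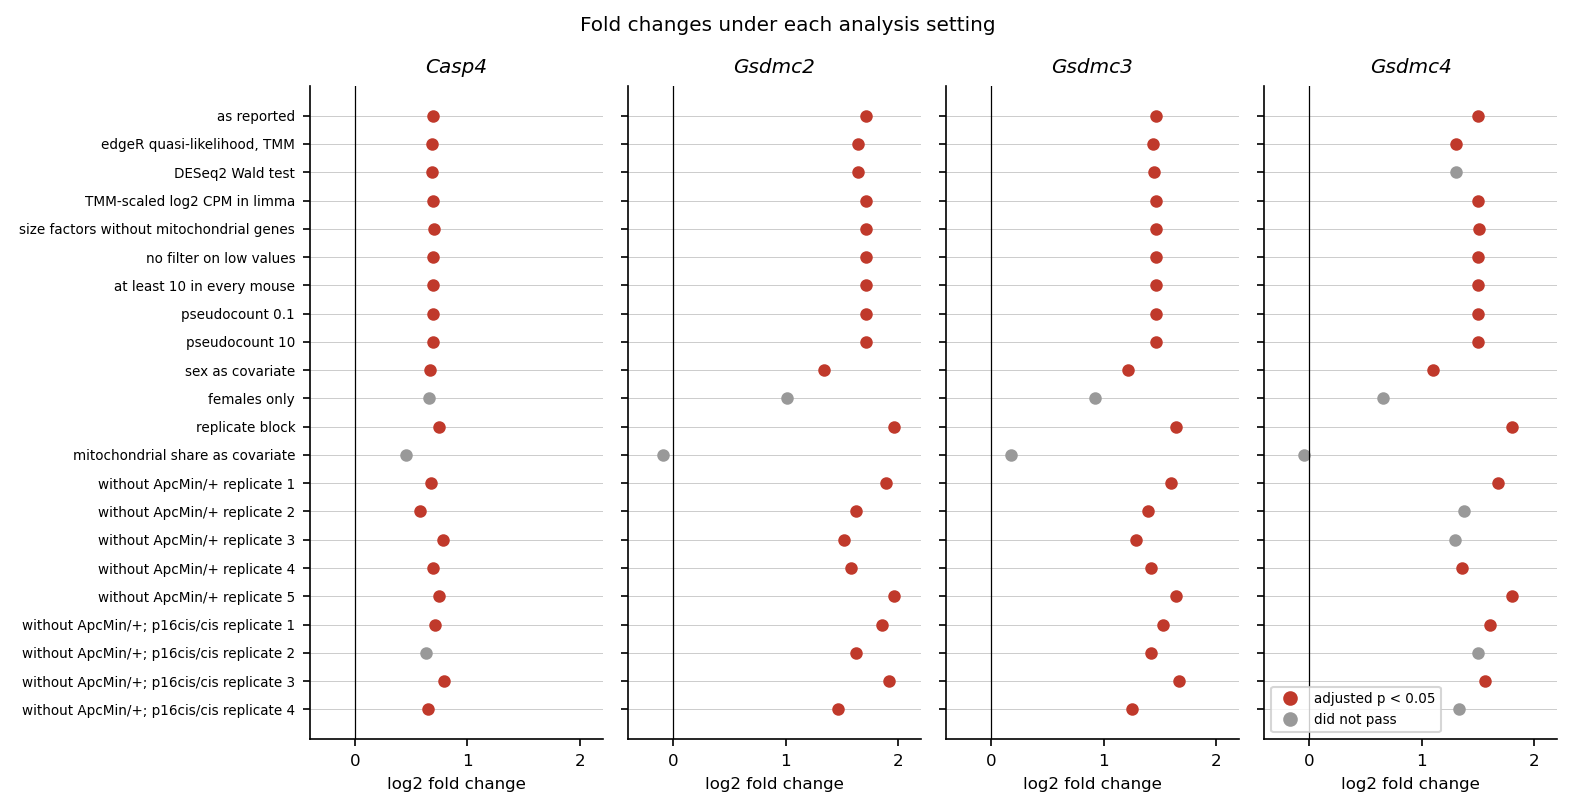
Log2 fold changes of the 4 genes that passed (horizontal axis) under each analysis setting (rows); red points passed at an adjusted p under 0.05. Casp4 moves to 0.45 and the gasdermin C genes to between -0.085 and 0.17 with the mitochondrial share as a covariate, none of the 4 passes in females only, and under all other settings each log2 fold change is above 0.5.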

How the data were processed

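The authors sequenced mRNA-enriched libraries on the BGISEQ-500, aligned reads with BOWTIE2, estimated gene levels with RSEM and used DESeq2; versions, genome build, annotation and read length are not given in the sources used here. The deposited signal is a normalized count, reads of a gene divided by a size factor of the mouse, and 100% of values came out as whole reads within 0.01. All identifiers of the 10 genes matched GENCODE M21 (GRCm38) with version. Groups and sex followed the labels. The 10 genes and all lists were chosen with earlier results of these data known.

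Genes with at least 10 in at least 4 mice were compared with limma 3.58.1 (R 4.3.3, trended variances, genotype only) on log2(normalized count + 1), which understates fold changes of low genes. The planned count tests, edgeR 4.0.16 (quasi-likelihood, TMM) and DESeq2 1.42.0 on recovered reads, were alternatives, with other normalizations, filters, pseudocounts, sex, females only, a replicate block and leaving out each mouse. The fit with the mitochondrial share was chosen after seeing the data. The genotype-only limma fit and the edgeR fit were tested on simulated data, and the other fits were not. Named genes were the 10 genes, pathway genes that passed, the other gasdermins, Il1b, Il18bp, Nlrp3 and Nlrc4, and the 5 genes most like the gasdermin C genes; others were chosen after their values were seen. Any pair of mice differed in the reads of at least 20964 genes, so no pair had identical read counts. A library sequenced again would also differ, so this check cannot exclude one. The values of 1 pathway gene are not reported here, although it is in the counts.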

Additional observations from a re-analysis of the deposited data

Results flagged for a closer look

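Of 50 groups of values (25 genes in each genotype), 5 had a mouse far from the others of its group by Dixon's criterion, which chance gives in about 1 in 20 groups. None was a value of the 10 genes. ApcMin/+ replicate 4 had a Casp9 normalized count of 707, beside 604 to 631 in the other ApcMin/+ mice. The same mouse had an Il13ra1 normalized count of 2250, beside 2754 to 2959. ApcMin/+; p16cis/cis replicate 1 had an Nlrc4 normalized count of 619, beside 644 to 648. ApcMin/+ replicate 5 had a Retnlb normalized count of 13084, beside 806 to 3014. ApcMin/+; p16cis/cis replicate 4 had a Gsdmcl2 normalized count of 8785, beside 3044 to 3999.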

How the results depend on the processing

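The 4 higher genes of the set also passed with edgeR, TMM-scaled values, size factors without mitochondrial genes, either filter, either pseudocount and sex as a covariate; DESeq2 lost Gsdmc4. The 9 mice are few, and the design cannot part genotype from mitochondrial share: with that share as a covariate 0 of the 10 genes were higher and 0 pathway genes were lower, and log2 fold changes turned to -0.13 for Nlrp6, -0.085 for Gsdmc2, -0.043 for Gsdmc4 and -0.031 for Retnlb. In females only, 0 of the 10 genes were higher and 0 pathway genes lower. Leaving out 1 mouse at a time gave 2 to 6 higher genes of the set, 0 to 4 higher and 2 to 10 lower pathway genes, and Nlrp6 turned to -0.036 without ApcMin/+; p16cis/cis replicate 2. Over these fits 1183 to 3488 of the 14410 genes passed. DESeq2, run without the filter on low values, gave 4 higher pathway genes. The cause of these changes was not tested. Without a filter or with DESeq2 the median of all genes moved to -0.12. Equal replicate numbers name different mice, and the labels describe no pairs. Their deviations correlated by -0.18 to 0.14. Mice with equal numbers were always of opposite sex, so these values cannot decide whether they were paired. Replicate 5 exists in ApcMin/+ alone, so the replicate block takes that mouse out of the genotype difference. ApcMin/+ replicate 5 had the highest sum of Gsdmc2, Gsdmc3 and Gsdmc4 of its group. The block gave 4 higher genes of the set and 5 higher pathway genes, while 2074 of the 14410 genes passed. Its log2 fold changes were 1.96, 1.64 and 1.80 for Gsdmc2, Gsdmc3 and Gsdmc4.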
